A study of Mus musculus with 40 samples.

Results

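Genes for matrix proteins, the proteases that cut them and the integrins that bind them were followed in mouse embryos cultured with 4-hydroperoxycyclophosphamide, a form of the DNA-damaging drug cyclophosphamide that needs no metabolic activation. Members are, by a rule on gene symbols that uses no measured value, every probe with a single annotated symbol of the collagen, laminin, Mmp, Timp, integrin, Lox, fibulin, fibrillin, Adam, Plod, P4ha, nidogen or glypican families, together with Fn1, Sparc, Hspg2, Postn, Vcan, Dcn, Lum, Bgn, Eln and Tnc. This gave 63 genes of the 6970 named on the arrays, measured by 84 of 15279 probes. Array design 1 held 28 of these genes on 32 probes and array design 2 held 40 on 52 probes, with 5 genes on both. The set was chosen with earlier results of these data known, so its shares beside those of all probes are description only. No probe was lost to a filter on low values. Of the symbols searched for, Postn, Eln, fibrillins and lysyl oxidases are not analysed here.

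Total RNA of embryos exposed to 40 µM drug for 5 h at 37 °C was hybridised on 2-colour arrays with total RNA of untreated embryos cultured at 37 °C. The labels give no strain, stage or number of embryos, and the RNA comes from embryos in bulk, so fewer cells of a type and less RNA per cell cannot be told apart. Each array design had 5 replicates, each hybridised in both dye orientations, which gave 10 slides, and each slide had a plain and a B file, taken as 2 readouts (20 samples). Only the labels show the replicates to be separate, and p-values cover the spread among these samples alone, part or all of which may be technical. The ratios are log2 values of treated over control set against each array's median probe, with base 2 and channel 1 as numerator assumed. This direction is the likely one, from the channel order in the labels and from the p53 target Ccng1, whose 3 probes were each higher in treated embryos on 10 of 10 slides. Readouts of the same dye orientation correlated as low as −0.541 over all probes on array design 2 and −0.31 on array design 1, and with channel 2 as numerator all directions given here would turn.

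The extracellular matrix is the secreted scaffold of tissues. Fibrillar collagens form its load-bearing fibres, whereas type IV collagen, laminins, nidogens and perlecan build the basement membranes under epithelia and around vessels. Metalloproteinases of the Mmp and Adam families cut matrix and cell surface proteins, Timp proteins hold the metalloproteinases back, and integrins link the matrix to the cytoskeleton. In embryos the matrix guides cell migration and shapes the neural tube, the heart and the somites.

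The comparison asked which of these transcripts treated embryos held at other levels than control embryos. Sparc, Mmp2 and Col1a1 had the largest rises, between 1.29-fold and 1.35-fold. Smaller rises were measured for probes of Vcan, Col18a1, Lamc1, Col4a1, Col4a2, Col1a2, Fn1, Tnc, Bgn, Itgb1, Col3a1 and Lamb1. Adamtsl1, Col12a1 and probes of Dcn, Lamb1, Col3a1 and Adamts17 fell, none by more than 1.19-fold. On array design 2, 17 of 52 member probes rose (32.7%) and 4 fell (7.69%), against 19.7% and 8.19% of all 7599 probes (limma, adjusted p under 0.05 over all probes of the design). Array design 1 had 1 of 32 member probes higher (3.12%) and 2 lower (6.25%), against 10.2% and 5.77% of all 7680 probes. The median member probe lay at 0.07 on array design 2 and at −0.00067 on array design 1, and the median of all probes at 0.02 and −0.0024. With the ratio turned, array design 2 would have 4 member probes higher and 17 lower, and array design 1 would have 2 higher and 1 lower. All replicates had one sign in 25 of 52 member probes on array design 2, against 33.9% of all probes, and in 8 of 32 on array design 1, against 29.4%. By gene, 15 of 63 had a probe that rose and 6 had a probe that fell, of which Col3a1 and Lamb1 had both, while 44 had no called probe. Counts by gene were not made over all named genes, so these are description only. Without the centring of arrays the median of all probes lay at −0.32 on array design 1 and −0.41 on array design 2. Then no member probe was higher and 28 and 44 were lower, against 0.781% higher and 82.5% lower and 0.276% higher and 87.3% lower of all probes, so that directions below hold relative to the median probe only. Leaving out replicate 1 of array design 2 left 9 member probes higher (17.3%) and 1 lower (1.92%), against 11.6% and 1.68% of all probes.

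**Figure D1:**
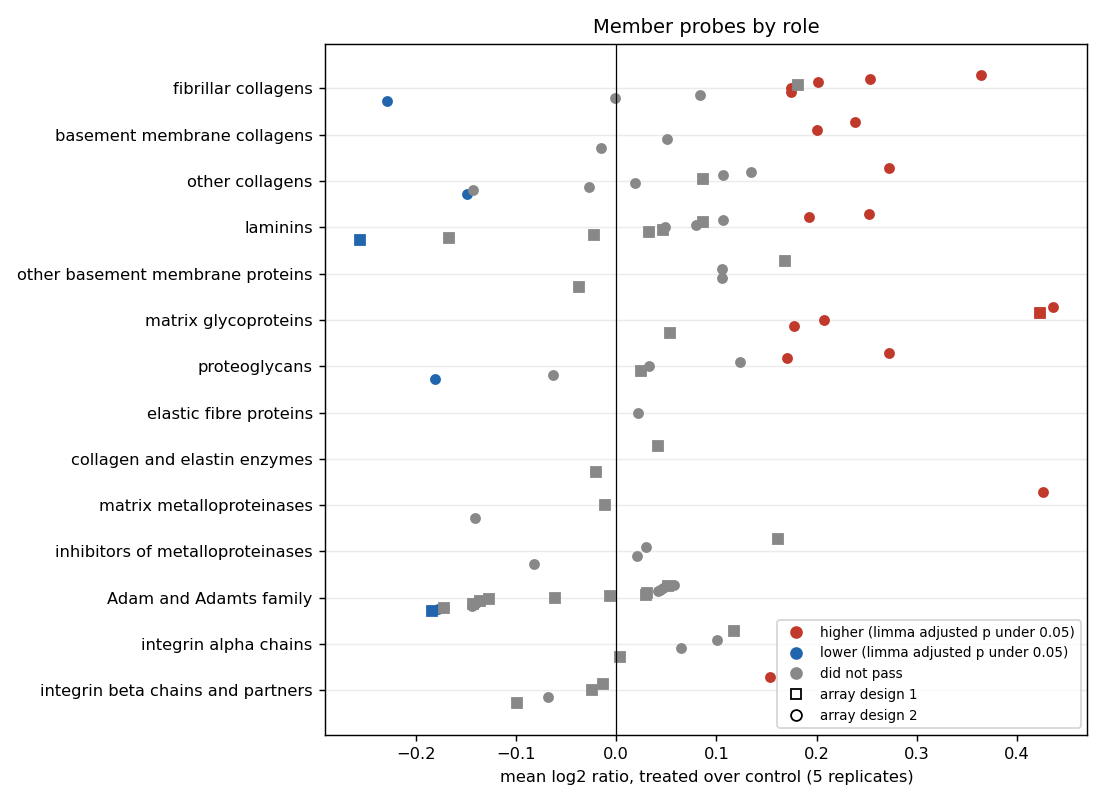
Mean log2 ratio of treated over control for each of the 84 member probes, by role. Squares are probes of array design 1 and circles those of array design 2, red and blue mark probes that passed the test, and the largest values, near 0.43, belong to Sparc and Mmp2.

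Fibrillar collagens form the fibres of skin, bone and loose connective tissue. On array design 2, 5 of their 8 probes rose (62.5%) and 1 fell (12.5%), against 19.7% and 8.19% of all probes. These 8 probes stand for only 4 genes, with 4 probes of Col3a1 and 2 of Col1a2. Among them, Col1a1 alone kept its call once the ratios were corrected for dye differences of the spots, as given further down. Col1a1, the alpha 1 chain of type I collagen, had replicate log2 ratios of 0.47, 0.58, 0.32, 0.18 and 0.26. No replicate crossed 0, with a mean of 0.36 ± 0.16 (1.29-fold, SD, n = 5, limma adjusted p = 8.76e-05). Its partner chain Col1a2 had 0.17 ± 0.09 and 0.17 ± 0.11 on its 2 probes (1.13-fold each, limma adjusted p = 0.0211 and 0.0232). Both Col1a2 calls ended without replicate 1, 2 or 4 (limma adjusted p = 0.0515 to 0.107) and with single arrays and a replicate block (0.15 and 0.0894).

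Col3a1, type III collagen of distensible tissues, was measured by 4 probes that did not move together. The first of them had 0.38, 0.28, 0.08, 0.24 and 0.29, with a mean of 0.25 ± 0.11 (SD, n = 5, limma adjusted p = 0.00157). A second rose by 0.20 ± 0.12 (limma adjusted p = 0.0105, and 0.0607 without replicate 1), and the next, at 0.08 ± 0.11, did not pass. The last had −0.29, −0.27, −0.33, −0.16 and −0.10, below 0 in every replicate, with a mean of −0.23 ± 0.10 (limma adjusted p = 0.00337). These cDNA probes carry the same gene symbol in the platform annotation, so no single direction is given for Col3a1. Col5a2 (−0.0012 ± 0.11) and, on array design 1, the cartilage collagen Col2a1 (0.18 ± 0.16, limma adjusted p = 0.0708) did not pass.

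Sequence before the annotated start is shown for Sparc, the member with the largest rise on both designs, and for the fibrillar collagen genes Col1a2 and Col3a1. Each line is the 150 bases before the RefSeq start, 5′ to 3′ along the gene, in build GRCm38.p6, with matches to the searched motifs in capitals. Sparc lies at chr11:55420081-55420230 on the minus strand, Col1a2 at chr6:4505468-4505617 and Col3a1 at chr1:45311388-45311537, both on the plus strand. Col1a1 and Mmp2 are not shown.
Sparc: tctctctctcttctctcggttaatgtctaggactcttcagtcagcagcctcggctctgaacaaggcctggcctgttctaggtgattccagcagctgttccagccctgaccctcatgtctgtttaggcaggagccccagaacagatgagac
Col1a2: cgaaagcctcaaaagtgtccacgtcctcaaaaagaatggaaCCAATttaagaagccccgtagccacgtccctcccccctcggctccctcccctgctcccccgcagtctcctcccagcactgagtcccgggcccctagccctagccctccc
Col3a1: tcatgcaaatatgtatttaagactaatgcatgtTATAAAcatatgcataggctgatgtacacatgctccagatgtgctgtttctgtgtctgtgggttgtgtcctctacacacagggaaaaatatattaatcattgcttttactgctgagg
The motifs were the CCAAT box (CCAAT), the GC box (GGGCGG) and the TATA box (TATAAA), each read on both strands, with no overlap between matches in these windows. Col1a2 held 1 CCAAT box, beginning 109 bases before the start. Col3a1 held 1 TATA box, beginning 117 bases before the start, and the letters of these motifs are not in the Sparc window. These are matches of letters only, and use of the sites was not measured. In the 250 bases before the start, a GC box was found for 27 of 41 member genes with a promoter in the RefSeq table (65.9%) and for 45.8% of 17491 protein-coding genes. A CCAAT box was found for 17 of 41 (41.5%) and 39.5%, and a TATA box for 4 of 41 (9.76%) and 13.7%. Among the 11 genes of these 41 that had a probe that rose, 8 held a GC box, 6 a CCAAT box and 2 a TATA box.

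Basement membrane collagens were measured on array design 2 only. Col4a2 had 0.42, 0.34, 0.19, 0.21 and 0.04 in the 5 replicates, a mean of 0.24 ± 0.15 (1.18-fold, SD, n = 5, limma adjusted p = 0.00453). Col4a1, whose chain pairs with that of Col4a2 in the same trimer, rose on one probe (0.20 ± 0.10, limma adjusted p = 0.00988) and had 0.05 ± 0.12 on the other (adjusted p = 0.514). Replicate 1 was the highest on all 3 of these probes, and the Col4a1 call ended without it (0.16, limma adjusted p = 0.0579) and with the replicate block (0.113). The X-linked Col4a5 had −0.02 ± 0.06 and did not pass.

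Among the other collagens, Col18a1, the basement membrane collagen that yields endostatin, had 0.40, 0.27, 0.11, 0.32 and 0.26 on one probe. That probe rose 1.21-fold (0.27 ± 0.11, SD, n = 5, limma adjusted p = 0.00077), and the second probe had 0.13 ± 0.08 (adjusted p = 0.0629). Col12a1, a collagen bound to fibril surfaces, fell by 0.15 on the log2 scale (SD 0.09, n = 5, limma adjusted p = 0.0434). That call ended without replicate 1, 2, 3 or 4 (limma adjusted p = 0.0736 to 0.137). The related Col14a1 had −0.14 ± 0.12 (adjusted p = 0.0585). Col6a1, Col6a5, Col9a3 and Col22a1 lay between −0.03 and 0.11 and did not pass.

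Laminins are heterotrimers of an alpha, a beta and a gamma chain. On array design 2 Lamc1, the gamma 1 chain of most laminins, had 0.34, 0.34, 0.21, 0.18 and 0.20 on one probe, and all 5 values lay above 0. Its mean was 0.25 ± 0.08 (1.19-fold, SD, n = 5, limma adjusted p = 0.0012), while the other Lamc1 probe had 0.05 ± 0.10 and the probe on array design 1 −0.02 ± 0.06. Neither of these passed.

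Lamb1, the beta 1 chain, had probes called in opposite directions on the 2 designs. One probe of array design 2 rose, with 0.23, 0.15, 0.18, 0.12 and 0.29 in the replicates (0.19 ± 0.07, limma adjusted p = 0.00997), and the other had 0.11 ± 0.15. On array design 1 one probe fell, with −0.21, −0.24, −0.16, −0.30 and −0.37 (−0.26 ± 0.08, limma adjusted p = 0.0137), and the other had −0.17 ± 0.06 (adjusted p = 0.0558). Without replicate 4 the fall on array design 1 was not called (−0.24, limma adjusted p = 0.06). The values of the probe that rose did not overlap those of array design 1. The other probe of array design 2 (−0.13 to 0.24) did overlap the uncalled probe of array design 1 (−0.25 to −0.10). How many of all genes have probes that lie apart in this way was not counted. The designs were fitted apart, and their difference was not tested. The alpha chains Lama1, Lama3 and Lama5 (2 probes) had 0.03 to 0.09 and did not pass.

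Of the other basement membrane proteins, which tie the laminin and collagen networks together, no probe passed. Perlecan (Hspg2) had 0.11 ± 0.16 and Nid2 0.11 ± 0.07 on array design 2. The 2 Nid1 probes of array design 1 had 0.17 ± 0.14 and −0.04 ± 0.12.

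Sparc encodes osteonectin, a collagen-binding glycoprotein of remodelling tissue and of the parietal endoderm. On array design 2 it had 0.50, 0.53, 0.44, 0.34 and 0.37, and rose 1.35-fold (0.44 ± 0.08, SD, n = 5, limma adjusted p = 3.49e-06). One probe of array design 1 had 0.30, 0.44, 0.40, 0.40 and 0.57 and rose 1.34-fold (0.42 ± 0.10, limma adjusted p = 0.00117). All 10 values of these probes lay at or above 0.30. The second Sparc probe of array design 1 had 0.05 ± 0.09 (adjusted p = 0.548). Of the 5 genes on both designs, Sparc was the only one called in the same direction on both. How often this held over all genes on both designs was not counted. The Sparc call on array design 1 ended with B readouts only (limma adjusted p = 0.291) and by the ordinary one-sample test (adjusted p = 0.0695).

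Fn1, fibronectin, the integrin ligand along which mesoderm migrates, had 0.37, 0.23, 0.05, 0.17 and 0.22 and rose 1.16-fold (0.21 ± 0.11, SD, n = 5, limma adjusted p = 0.00842), and had 0.17 without replicate 1 (limma adjusted p = 0.0567). Tnc, tenascin C, had 0.23, 0.46, 0.24, 0.05 and −0.10 and passed at 0.18 ± 0.21 (limma adjusted p = 0.0459). Its replicates spanned 0. The Tnc call ended without replicate 1 (0.17, limma adjusted p = 0.182), 2 (0.11, 0.251) or 3 (0.16, 0.079) and with the replicate block (0.102). Fbln2, a fibulin of elastic fibres, had 0.02 ± 0.13 and did not pass.

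Proteoglycans carry glycosaminoglycan chains. Vcan, versican, the large proteoglycan of the cardiac jelly and of loose mesenchyme, had 0.47, 0.25, 0.12, 0.28 and 0.25 and rose 1.21-fold (0.27 ± 0.12, SD, n = 5, limma adjusted p = 0.000957). Bgn, biglycan, rose by 0.17 ± 0.08 (limma adjusted p = 0.0217). Both had all replicates above 0, and the Bgn call ended without replicate 1 or 2 (limma adjusted p = 0.0773 and 0.0728). Dcn, decorin, a small proteoglycan that binds collagen fibrils, fell by 0.18 on the log2 scale on one probe (SD 0.07, limma adjusted p = 0.0153), a call lost without replicate 1 or 3 (0.0653 and 0.0546). The other Dcn probe had 0.03 ± 0.05 (adjusted p = 0.659). Lum had 0.12 ± 0.06 (adjusted p = 0.0798), Gpc1 −0.06 ± 0.17 and, on array design 1, Gpc3 0.02 ± 0.19.

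**Figure D2:**
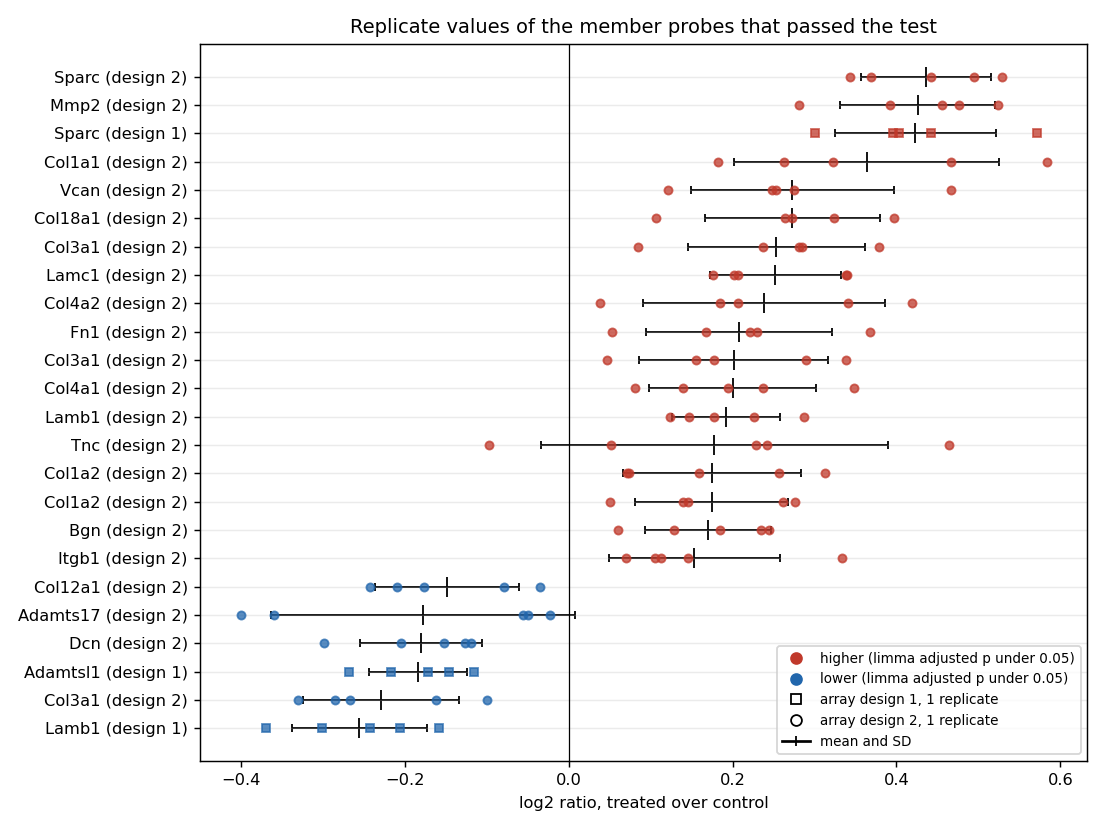
Replicate log2 ratios of treated over control for the 24 member probes that passed the test. Points are replicates and bars are mean and SD (n = 5), and Tnc is the only probe of the 24 with replicates on both sides of 0.

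Mmp2, gelatinase A, cuts denatured collagen and type IV collagen. It had 0.39, 0.28, 0.46, 0.48 and 0.52 and rose 1.34-fold (0.43 ± 0.09, SD, n = 5, limma adjusted p = 5.61e-06). All 5 replicates lay above the highest replicate of any inhibitor probe on that design, 0.13, while the Timp3 probe of array design 1 reached 0.33. How many of all probes lie apart in this way was not counted. Ratios of different probes do not give the balance of protease and inhibitor. Mmp7, matrilysin, had −0.14 ± 0.07 (adjusted p = 0.0503) and Mmp23 −0.01 ± 0.16. The inhibitors Timp2, Timp3 and Timp4 had 0.02 ± 0.08, 0.03 ± 0.08 and −0.08 ± 0.12 on array design 2, and Timp3 had 0.16 ± 0.11 on array design 1 (adjusted p = 0.0746). None of their 4 probes passed.

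Adam proteins shed membrane proteins, and Adamts proteins cut secreted matrix proteins. None of their 17 probes rose and 2 fell. On array design 1, 1 of 10 fell (10%), against 10.2% of all probes higher and 5.77% lower. On array design 2, 1 of 7 fell (14.3%), against 19.7% of all probes higher and 8.19% lower. Adamtsl1, an Adamts-like protein without a protease domain, fell by 0.18 on the log2 scale (SD 0.06, n = 5, limma adjusted p = 0.0414). That call ended whichever replicate was left out (limma adjusted p = 0.0784 to 0.121) and with the replicate block (0.113). Adamts17 fell on one probe of array design 2, with −0.36, −0.06, −0.40, −0.05 and −0.02 (−0.18 ± 0.19, limma adjusted p = 0.0378). Replicates 1 and 3 lay far below the others, and without either the probe did not pass (−0.13 and −0.12, limma adjusted p = 0.202 and 0.196). The 2 other probes of the gene had 0.06 ± 0.13 and −0.0057 ± 0.13. The 2 probes of Adamts19 had −0.14 each, with adjusted p = 0.0513 and 0.0619. The sheddases Adam10 (2 probes) and Adam17 had 0.04 to 0.05. The other probes of array design 1, for Adam8, Adam15, Adam19, Adamts1, Adamts4, Adamts9, Adamts10 and Adamts12, lay between −0.17 and 0.05 and did not pass. The collagen-modifying enzymes P4ha2 and Plod3 had −0.02 ± 0.20 and 0.04 ± 0.17 and did not pass.

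Integrins pair an alpha with a beta chain. Itgb1, the beta chain shared by most matrix receptors, had 0.33, 0.11, 0.10, 0.15 and 0.07 and rose 1.11-fold (0.15 ± 0.10, SD, n = 5, limma adjusted p = 0.0414). The call ended without replicate 1, the highest (0.11, limma adjusted p = 0.16), and also without replicate 2 (0.0691), 3 (0.0705) or 4 (0.0987), and was kept only without replicate 5 (0.0281). No other chain passed. The alpha chains Itga3, Itga5, Itga6 and Itga9 had 0.0043 to 0.12. The beta chains Itgb4, Itgb5 and Itgb7 had −0.07 to −0.01. Itgb3bp, matched by its symbol, encodes a centromere protein that binds an integrin tail, and had −0.10 ± 0.14.

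Of the 14 member genes with more than 1 probe, only Col1a2 had all probes called higher. In 6 genes part of the probes were called and in one direction, in Col3a1 and Lamb1 in both directions, and 5 genes had no call. The same counts over all genes with several probes were not made. Both Col1a2 probes changed sign between the dye orientations and lost their calls once corrected for dye differences, as given below.

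**Figure D3:**
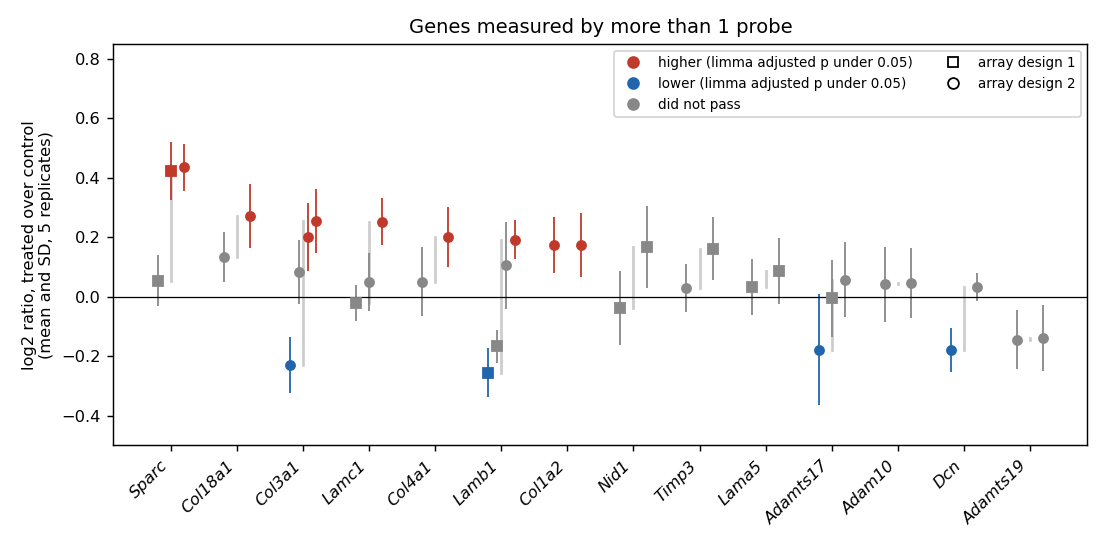
Mean log2 ratio of treated over control (SD bars, n = 5) for each probe of the 14 member genes with more than 1 probe. Probes of Col3a1 and Lamb1 lie on both sides of 0, while both Col1a2 probes have 0.17.

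The dye orientations were also looked at apart, since a dye effect cancels only in their mean. Sparc was higher in treated embryos in both, with 0.35 ± 0.45 with treated embryos in channel 1 and 0.52 ± 0.42 in channel 2 on array design 2, and 0.23 ± 0.39 and 0.62 ± 0.21 on array design 1 (SD, n = 5). Mmp2 had 0.35 ± 0.24 and 0.50 ± 0.38. Col1a1 had 0.63 ± 0.44 in channel 1 and 0.10 ± 0.25 in channel 2, so most of its rise came from one orientation. No member probe of array design 2 passed in channel 2 alone. The orientations disagreed in sign for the Col1a2 probes, with 0.81 ± 0.46 and 0.73 ± 0.30 in channel 1 against −0.46 ± 0.31 and −0.38 ± 0.25 in channel 2. Col4a1 (0.93 ± 0.37 against −0.53 ± 0.27) and Tnc (0.62 ± 0.20 against −0.26 ± 0.53) did likewise. Among probes that fell, the orientations disagreed for Dcn (−0.40 ± 0.33 against 0.04 ± 0.30). They also did for Lamb1 (−0.59 ± 0.37 against 0.08 ± 0.27) and Adamtsl1 (−0.63 ± 0.41 against 0.27 ± 0.36) on array design 1. Of the called member probes, 16 of 21 on array design 2 and 1 of 3 on array design 1 had one sign in both orientations. Over all called probes these counts were 1180 of 2117 and 647 of 1224.

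The ratios also varied with the dye difference of the spots, and a smooth trend fitted to it within a replicate accounted for 34.1% to 68.6% of the variance on array design 1 and 35.7% to 61.9% on array design 2. With this trend removed, 3 of 52 member probes on array design 2 rose and none fell, against 2.99% and 1.68% of all probes. Those 3 were Mmp2 (0.36 ± 0.09, SD, n = 5, limma adjusted p = 0.00145), Sparc (0.26 ± 0.11, adjusted p = 0.0126) and Col1a1 (0.28 ± 0.15, adjusted p = 0.0204). On array design 1, Sparc had 0.25 ± 0.14 (adjusted p = 0.0562), and Gpc3, a glypican that restrains growth factor signals, fell to −0.19 ± 0.07 (adjusted p = 0.0474), against 0.02 before. No other member passed there, against 0.833% of all probes higher and 0.469% lower. Vcan, Col18a1, Lamc1, Fn1, Col4a2, Itgb1 and the remaining calls ended, with values between −0.09 and 0.11.

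**Figure D4:**
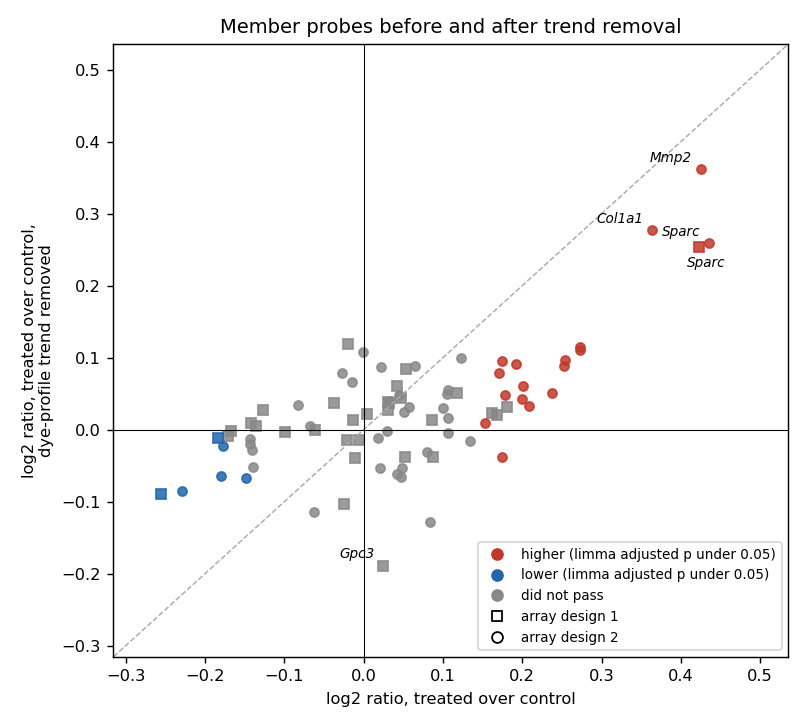
Mean log2 ratio of treated over control per member probe before (x axis) and after (y axis) removal of the dye-profile trend, coloured by the call before removal. Mmp2, Col1a1 and Sparc stay above 0.25, most other probes move towards 0, and Gpc3 lies at −0.19.

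Other genes of the pathway came from 2 lists. These were written with earlier results of these data known, so their shares beside those of all probes are description only. Of matrix-associated proteins, processing enzymes and proteases, 6 of 23 probes rose (26.1%) and none fell on array design 1, against 10.2% and 5.77% of all probes, and 10 of 32 rose (31.2%) and 2 fell (6.25%) on array design 2, against 19.7% and 8.19%. The median was 0.0061 and 0.06. Ctsd, the lysosomal protease cathepsin D, rose on both designs (0.34 ± 0.10 and 0.45 ± 0.11, SD, n = 5, limma adjusted p = 0.00449 and 3.42e-06). Cathepsin B (Ctsb) rose by 0.32 ± 0.08, and Bsg, basigin, which induces metalloproteinases, by 0.39 ± 0.15 on array design 1. Serpinh1, the collagen chaperone of the endoplasmic reticulum, rose by 0.54 ± 0.32 on array design 2, where replicate 1 had 0.10 and the others 0.43 to 0.87. P4hb, the shared subunit of prolyl 4-hydroxylase, rose by 0.29 ± 0.09. Of adaptors and partners at integrin adhesions, 1 of 15 probes rose on array design 1 (6.67%, against 10.2%). On array design 2, 7 of 16 rose (43.8%) and 1 fell (6.25%), against 19.7% and 8.19%, with medians of 0.07 and 0.13 on array designs 1 and 2. The probe that rose on array design 1 was Rsu1 (0.18 ± 0.10), whose call ended whichever replicate was left out (limma adjusted p = 0.0622 to 0.127). Among those that rose on array design 2 were the tetraspanins Cd81 (0.93 ± 0.19) and Cd151 (0.59 ± 0.11), which sit beside integrins in the membrane, and Pdlim7 (0.29 ± 0.16). With the dye-profile trend removed, Ctsd on both designs, Ctsb, Cd81 and Cd151 still passed. The calls of Serpinh1 (0.36, limma adjusted p = 0.112), P4hb (0.12, 0.0976), Bsg (0.16, 0.0783), Rsu1 (0.11, 0.229) and Pdlim7 (−0.03, 0.779) ended.

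Markers of cell types that embryos hold were counted beside these values. Array design 2 held 9 erythroid probes for 5 genes, with a range of −0.0024 to 0.63. Of these probes 7 rose (77.8%), against 19.7% of all probes. With the dye-profile trend removed 4 were still higher, against 2.99% of all probes. The erythroid probe of array design 1 had −0.10. The single endothelial probe of array design 2 rose by 0.26, and 3 on array design 1 had −0.05 to 0.18 and did not pass. Of 4 placenta and decidua probes on array design 1, 2 fell (50%), with a range of −0.23 to 0.0068, against 5.77% of all probes. Of 8 visceral endoderm probes there 1 rose (12.5%), with a range of −0.20 to 0.20, against 10.2% of all probes. The 2 visceral endoderm probes on array design 2 had −0.04 and −0.02. With the trend removed the endothelial probe had 0.11, and no endothelial, placenta or visceral endoderm probe passed. Parietal endoderm (6 probes, −0.15 to 0.14) and mesenchyme and neural crest probes (3 probes, −0.11 to 0.07) did not pass on either design. The part of these cell types in the matrix values was not tested, and ratios of 2 channels give no level by which presence of a cell type could be read.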

How the data were processed

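The authors deposited 1 log ratio per spot and array, with no summary over replicates, taken here as log2 of channel 1 over channel 2 (base, numerator, scanner, background correction and normalization: not given in the sources used here). Spots of the same accession were averaged, and probes were named by the platform annotation, whose symbols the GRCm38.p6 gene table left unchanged. Each array was centred on its median, control-over-treated arrays were turned, and readouts and then dye orientations were averaged to 1 value per replicate. One readout of replicate 4 on array design 1 lacked 10.2% of its values and was left out (limit 5%). limma 3.58.1 (R 4.3.3) tested the mean of every probe measured in 3 or more replicates for a difference from 0 (two-sided, Benjamini-Hochberg over all probes of a design, threshold 0.05), separately by design because they hold different probes. The number of arrays limits the precision. The dye-profile trend was fitted with mgcv 1.9.3 on 3 principal components of the orientation difference (bases of 40 and 8, scaled t errors). The limma fit, without the trend removal, was also run on simulated replicates with independent normal errors. These hold no shared dye trend, so that run cannot tell how calls behave under such a trend. Alternatives covered centring, scaling, readouts, orientations, a replicate block, slide series, variance priors, thresholds, missing values, the trend and each replicate left out. Slide series 2000 and 3000 were inferred from the leading digits of the numbers in the sample titles. The labels do not say what these digits stand for.

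Members and gene lists were chosen with earlier results of these data known. Named are, per role and design, up to 4 called member probes with the smallest p or else the 1 with the smallest p, genes on both designs and fixed matrix genes (22 of 28 measured), and up to 3 genes per pathway list. Other members are given by value or range. Cell types were given by counts.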

Additional observations from a re-analysis of the deposited data

Results flagged for a closer look

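In 3 of the 55 named probes 1 replicate lay far from the other 4, by Dixon's gap over range above 0.71, where chance alone flags about 1 in 20 groups. The Nid1 probe of array design 1 with a mean of −0.04 had −0.26 in replicate 2, and the others lay between −0.0061 and 0.04. Itgb1 had 0.33 in replicate 1, and the others 0.07 to 0.15. Hspg2 had 0.39 in replicate 5, and the others −0.01 to 0.09.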

How the results depend on the processing

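The count of member probes higher and lower moved with the processing, and the share of all probes under the same setting stands in brackets. On array design 1 it was 1 and 2 (10.2% and 5.77%) as reported, and 0 and 28 (0.781% and 82.5%) without centring, 1 and 0 (7.41% and 0.0911%) with arrays scaled, 1 and 0 (0.638% and 0.013%) with every readout kept, 1 and 0 (5.73% and 0.794%) with plain readouts only, 0 and 0 (0.0521% and 0%) with B readouts only, 5 and 6 (15.9% and 14.4%) with treated embryos in channel 1 only, 1 and 7 (5.73% and 11.1%) in channel 2 only, 1 and 1 (9.09% and 3.96%) with single arrays and a replicate block, 1 and 1 (6.34% and 1.05%) with a term for slide series, 1 and 0 (0.768% and 0.013%) in slide series 2000 alone, 1 and 0 (3.65% and 0.013%) in series 3000 alone, 0 and 1 (0.0391% and 0.143%) by the ordinary one-sample test, 1 and 0 (2.96% and 0.0521%) at a threshold of 0.01 and 0 and 1 (0.833% and 0.469%) with the trend removed. On array design 2 it was 17 and 4 (19.7% and 8.19%) as reported, and 0 and 44 (0.276% and 87.3%) without centring, 11 and 2 (15.1% and 2.42%) with arrays scaled, 14 and 1 (12.8% and 1.39%) with plain readouts only, 13 and 4 (16.4% and 6.84%) with B readouts only, 5 and 3 (9.3% and 6.4%) with treated embryos in channel 1 only, 0 and 0 (1.45% and 0.145%) in channel 2 only, 15 and 6 (18.3% and 11.1%) with single arrays and a replicate block, 15 and 3 (19.1% and 6.65%) with a term for slide series, 14 and 6 (20.1% and 8.38%) in slide series 2000 alone, 6 and 0 (9.71% and 0.632%) in series 3000 alone, 5 and 2 (9.24% and 2.33%) by the ordinary one-sample test, 11 and 1 (12.5% and 1.2%) at a threshold of 0.01 and 3 and 0 (2.99% and 1.68%) with the trend removed. Leaving out each replicate gave 1 higher each time and 0 to 1 lower on array design 1, and 9 to 19 higher and 1 to 6 lower on array design 2, where leaving out replicate 1 gave the lowest count higher and leaving out replicate 1 or 3 the lowest count lower. The lower count of array design 1 was 0 without replicate 4 and 1 without any other. Of the 24 called probes, 11 kept call and direction whichever replicate was left out, and 0 kept both in every alternative.

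The following sign changes are of named probes that passed the test as reported or under the alternative. Without centring they were Plod3 −0.27, Itga5 −0.31, Itga9 −0.19, Lama1 −0.27, Lama5 −0.28 and −0.23, Sparc −0.26, Col22a1 −0.23, Gpc3 −0.29 on array design 1, and Adamts17 −0.37, Col4a1 −0.38 and −0.23, Col4a2 −0.19, Fbln2 −0.41, Col1a1 −0.065, Col1a2 −0.25 and −0.25, Col3a1 −0.34 and −0.23 and −0.18, Timp2 −0.41, Timp3 −0.40, Itga6 −0.33, Itgb1 −0.28, Lamb1 −0.32 and −0.24, Lamc1 −0.38 and −0.18, Fn1 −0.22, Tnc −0.25, Mmp2 −0.0029, Hspg2 −0.32, Nid2 −0.32, Col18a1 −0.16, Bgn −0.26, Dcn −0.40, Vcan −0.16 on array design 2. The Sparc value is that of the probe that did not pass as reported, and the Sparc probes that rose stayed above 0 (0.11 on array design 1 and 0.007 on array design 2), with the calls lost. With treated embryos in channel 2 only they were Adamtsl1 0.27, Timp3 −0.41, Itga9 −0.50, Lama5 −0.41, Lamb1 0.0784, Col22a1 −0.44 on array design 1, and Col4a1 −0.53, Col1a2 −0.46 and −0.38, Tnc −0.26, Dcn 0.0358 on array design 2. With the trend removed they were Gpc3 −0.19 on array design 1 and Col1a2 −0.0386 on array design 2, and in series 3000 alone Tnc (−0.0228). Under these and other alternatives named probes that passed in neither also turned, 3 of them without centring, 14 in channel 2 only, 8 with the trend removed and 4 in series 3000 alone. The cause of these changes was not tested.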
